A study of Rattus norvegicus with 12 samples.

Results

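The endothelin system of diabetic rat wounds was followed through 6 genes: the ligand genes Edn1, Edn2 and Edn3, the receptor genes Ednra and Ednrb, and Ece1, which encodes an endothelin-converting enzyme. They were taken by symbol from the 25620 genes of the deposited count table, and all 6 were listed there and in the table of FPKM values. The set was selected on a measured value, since Edn2 had been seen at a higher level in wounds treated with d-SMG than in the control wounds on every day sampled. For that reason d-SMG against control, and Edn2 in any comparison, are given as descriptions with no test.

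All animals were male SD rats made diabetic with streptozotocin (STZ), each with a circular full-thickness punch wound on the back. The 4 groups were a control treated with normal saline, d-SMG (a gel made from the dried mucus of the snail Achatina fulica), s-GAG (the sulfated glycosaminoglycan prepared from that mucus, labelled GAG) and Alg (a commercial alginate dressing). Wound skin was collected on days 3, 7 and 14, and each group had 1 library per day, 12 libraries in all. How many animals stood behind a library is not given in the sources used here, and STZ diabetes models the loss of insulin rather than the neuropathy of a human foot ulcer.

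The libraries held between 13748887 and 38302461 reads on genes. A pair of libraries stood apart from the rest: the mean correlation of log2 CPM (counts scaled to a common total) with the other 11 libraries was 0.853 for s-GAG on day 14 and 0.878 for d-SMG on day 3, against 0.927 to 0.949 for the other 10. The labelled tissue was skin, but the d-SMG library of day 3 held 60.7 CPM summed over 14 keratinocyte markers, where the control libraries held 4541 to 11130. That library also held the highest sum of 10 skeletal muscle markers, 197900 CPM, while the muscle sum of the others went from 4698 to 133800 CPM. The correlations are given with and without these libraries, as are some of the counts and fitted values. The d-SMG fits, the list counts and the shares over all genes include both.

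Endothelins are short peptides that are cut from longer precursors, first by furin-type proteases and then by endothelin-converting enzyme at the cell surface. They act on a pair of G protein-coupled receptors. The A receptor, encoded by Ednra, prefers endothelin-1 and endothelin-2 and drives contraction of vascular smooth muscle, and the B receptor, encoded by Ednrb, binds every endothelin about equally, triggers nitric oxide release in endothelium and removes endothelin from the circulation. In skin the family is also known from pigment cells: endothelin-3 and the B receptor are needed by melanocyte precursors, and keratinocytes release endothelin-1, which acts on melanocytes.

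The stretches just upstream of Edn2 and Edn1 are shown because the results turn on Edn2, and Edn1 was the leading ligand of the control wounds. Each line gives the 250 bases before the annotated start, 5′ to 3′ on the gene's strand, from RefSeq in the GRCr8 build. Edn2 lies at chr5:139036326-139036575 on the plus strand and Edn1 at chr17:22666688-22666937 on the minus strand, and capitals mark matches to the motifs searched.
Edn2: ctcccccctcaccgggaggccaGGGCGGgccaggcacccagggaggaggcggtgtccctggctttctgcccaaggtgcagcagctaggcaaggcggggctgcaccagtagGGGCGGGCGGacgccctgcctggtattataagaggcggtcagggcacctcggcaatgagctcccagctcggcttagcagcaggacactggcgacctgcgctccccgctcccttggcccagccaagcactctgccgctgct
Edn1: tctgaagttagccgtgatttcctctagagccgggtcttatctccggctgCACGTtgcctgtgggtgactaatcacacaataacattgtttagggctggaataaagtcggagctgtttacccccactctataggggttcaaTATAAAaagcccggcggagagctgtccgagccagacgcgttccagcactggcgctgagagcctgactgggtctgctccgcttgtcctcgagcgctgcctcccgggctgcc
The motifs were TATAAA for the element bound by TATA-binding protein, TGANTCA for AP-1, ACGTG for the core of the hypoxia-response element, GGGCGG for Sp1-type sites and the CCAAT box, each read on both strands. The Edn2 stretch held GGGCGG 3 times, at 228, 140 and 136 bases before the start, and the matches at 140 and 136 overlap. It held no exact match to the other 4 motifs. Near matches, such as tataag in this stretch, were not counted. The Edn1 stretch held TATAAA 110 bases before the start and CACGT, the minus-strand reading of ACGTG, 201 bases before it. Among 33469 upstream stretches of the same length, GGGCGG was found in 30.5%, TATAAA in 12.9%, ACGTG in 16.6%, TGANTCA in 6.34% and CCAAT in 34.0%. Upstream of Ece1 there were 2 GGGCGG and 2 CCAAT matches, and no match upstream of Ednra or Ednrb. GC content was 69.6% for Edn2 and 56.4% for Edn1, where the median stretch had 51.2%.

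In FPKM, which corrects for gene length, the ligand transcripts were rare and Ece1 was the most abundant member. The median over 12 libraries was 32.4 FPKM for Ece1, 6.51 for Ednrb, 2.02 for Ednra, 1.14 for Edn1, 0.805 for Edn2 and 0.205 for Edn3. Edn2 varied most, with a highest FPKM 27.1 times the lowest, and Ece1 least, at 2.21 times. All 6 members passed the low-count filter, which 16110 of 25620 genes passed. Edn2 passed it through the dressed wounds, since none of the 3 control libraries reached the 0.587 CPM that the filter asks for.

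Edn2 encodes endothelin-2, a peptide that differs from endothelin-1 at few positions and binds the same receptors. The control libraries of days 3, 7 and 14 held 3, 2 and 2 Edn2 reads, or 0.126, 0.137 and 0.0977 CPM after TMM scaling. In the same order, d-SMG gave 19, 13 and 31 reads (1.53, 0.598 and 1.95 CPM). The s-GAG libraries gave 21, 68 and 52 reads (1.20, 1.75 and 3.54 CPM). Alg gave 16, 9 and 29 reads (0.784, 0.610 and 1.80 CPM). All 9 dressed wounds lay above all 3 controls, and so did the 7 that remained without d-SMG on day 3 and s-GAG on day 14. How many of all genes did so is not given, and the shares below are for comparisons within a day. The control and d-SMG values are those selected on, so nothing is read from this separation.

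The ratio to the control of the same day rests on 2 or 3 control reads, so its counting interval is wide. For d-SMG it was 12.1 on day 3 (95% interval 3.57 to 64.0), 4.38 on day 7 (0.992 to 40.0) and 20.0 on day 14 (5.08 to 172). The intervals are exact Clopper-Pearson intervals and cover counting error alone, not the spread between animals. On day 7 the interval reached 1 for d-SMG and also for Alg, whose ratio was 4.47 (0.925 to 42.5). The s-GAG ratio was 9.56 (2.85 to 50.04) on day 3, 12.8 (3.42 to 108) on day 7 and 36.3 (9.56 to 308) on day 14, and Alg stood at 6.22 (1.78 to 33.3) on day 3 and 18.4 (4.67 to 160) on day 14.

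Over the 3 days the mean log2 difference from control was 3.35 ± 1.12 (SD, n = 3 days) for d-SMG, 4.04 ± 1.01 for s-GAG and 3.00 ± 1.07 for Alg. These means share the control libraries, so they are not independent of each other or of the value that led to the selection of Edn2. By mean CPM the order was control (0.120 ± 0.0201), Alg (1.07 ± 0.644), d-SMG (1.36 ± 0.692) and s-GAG (2.17 ± 1.22), and neighbours among the 3 dressings differed by less than the larger of their SDs. For the whole table, 0.242% of the genes that passed the filter were at least 2-fold higher with d-SMG on each day, 1.46% had the control as the lowest of the 4 libraries on each day, and 0.0931%, 15 genes, were at least 2-fold higher than control in all 9 dressed libraries. Edn2 was the single member in each of these classes, which is what it was selected for in the case of d-SMG, and nothing is read from the count.

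The dressings were also set against each other, a comparison that uses no control library. The d-SMG values in it are among those the selection used, so the ratios are descriptions. Edn2 was 2.93 times higher with s-GAG than with d-SMG on day 7 (1.60 to 5.78) and 1.82 times higher on day 14 (1.14 to 2.93). The s-GAG value was likewise 2.87 times that of Alg on day 7 (1.43 to 6.55) and 1.97 times on day 14 (1.23 to 3.21). On day 3 the ratio of d-SMG to s-GAG was 1.27 (0.645 to 2.48) and that of s-GAG to Alg 1.54 (0.764 to 3.15). For d-SMG against Alg the interval held 1 on every day, with ratios of 1.95 (0.950 to 4.05), 0.981 (0.388 to 2.60) and 1.08 (0.632 to 1.86). The highest Edn2 library, s-GAG on day 14, is among the pair that stood apart, and 1 library per arm leaves no replicate check.

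Summed markers of other cell types moved with the same contrast. The 15 hair follicle markers, all of them present in the count table, summed to 16.4 to 329 CPM in the controls, 6.51 to 1326 with d-SMG, 1930 to 4741 with s-GAG and 141 to 8619 with Alg. Their sum was above the control of the day in 8 of 9 dressed libraries, and it was below in d-SMG on day 3, where Krt28, Krt72, Krt26 and Dlx3 were at 0 reads. The same 8 libraries had a higher sum of the 14 keratinocyte markers found of 16 listed, with 4541 to 11130 CPM in the controls, 60.7 to 20510 with d-SMG, 12330 to 42250 with s-GAG and 10130 to 18510 with Alg. The single keratinocyte markers did not all move with that sum. By fitted difference from control, 11 were higher and 3 lower with s-GAG and with Alg, and 7 higher and 7 lower with d-SMG. These fits include d-SMG on day 3 and s-GAG on day 14. Krt1, Krt10 and Flg were lower with each dressing. In d-SMG on day 3, where both sums were the lowest of the 12, Edn2 stood at 1.53 CPM. Without that library and s-GAG on day 14, Pearson's r of Edn2 with the hair follicle sum was 0.84 over the other 10 libraries. With the keratinocyte sum it was 0.82, and over all 12 libraries the values were 0.59 and 0.14. The control and d-SMG values of Edn2 in these correlations were among those selected on. The 10 libraries were chosen after seeing the data, so the values of r are descriptions. The part of hair follicle and keratinocyte content in the Edn2 difference was not tested, and in bulk tissue fewer cells of a type and less RNA per cell cannot be told apart.

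**Figure D1:**
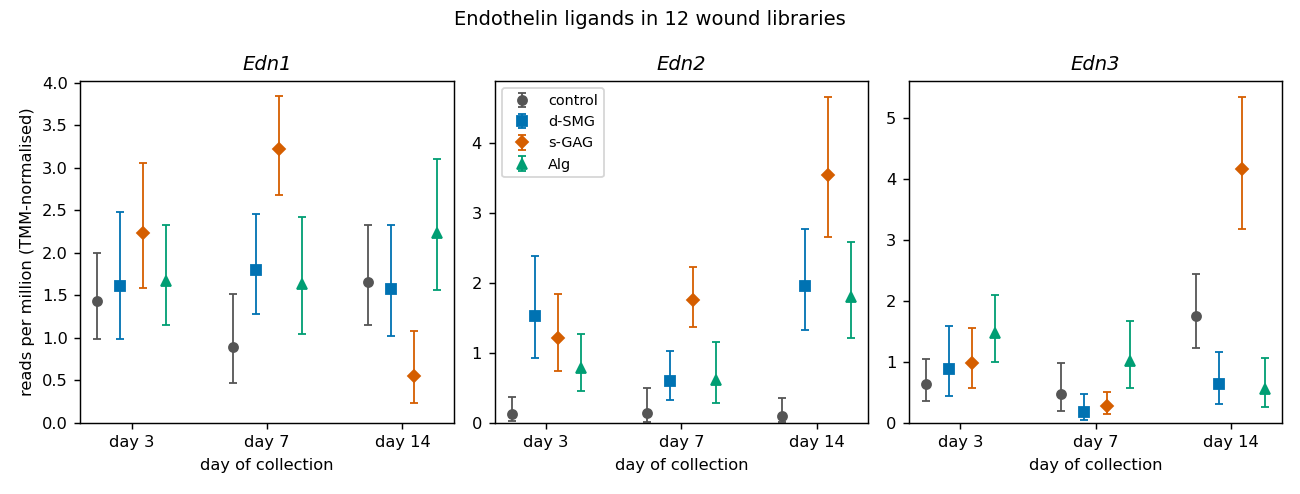
TMM-normalised CPM of Edn1, Edn2 and Edn3 by day, 1 point per library, with bars for the exact 95% counting interval. Edn2 in the control (grey circles) stayed between 0.0977 and 0.137 CPM while every dressed wound was at 0.598 CPM or above, and Edn1 and Edn3 showed no such separation.

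Edn1 encodes endothelin-1, the endothelial vasoconstrictor that gave the family its name. Its levels in the control were 1.43, 0.887 and 1.66 CPM on days 3, 7 and 14 (34, 13 and 34 reads). In the d-SMG wounds it was 1.61, 1.79 and 1.57 CPM (20, 39 and 25 reads). With s-GAG it was 2.24, 3.22 and 0.545 CPM (39, 125 and 8 reads), so that this group held both the highest and the lowest library. Alg had 1.67, 1.63 and 2.24 CPM (34, 24 and 36 reads). Of the dressed wounds, 7 of 9 lay above the control of their day, and 6 of 7 without d-SMG on day 3 and s-GAG on day 14.

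Day 7 was the day on which Edn1 stood clear of the control, whose level was then its lowest. The s-GAG library was 3.63 times the control on day 7 (2.05 to 7.01) and d-SMG 2.02 times (1.06 to 4.13), while for Alg the ratio of 1.83 had an interval of 0.897 to 3.92. On day 14 the s-GAG library reversed, with the control 3.04 times higher (1.38 to 7.61). For d-SMG on days 3 and 14 the log2 differences of 0.17 and -0.08 changed sign when libraries were scaled by their read totals (-0.26 and 0.11). Over the days the fitted log2 difference of s-GAG from control was 0.53 (edgeR quasi-likelihood test, adjusted p = 0.742). It was -0.08 without s-GAG on day 7 and 1.13 without s-GAG on day 14. For Alg it was 0.46 (adjusted p = 1.0), and from 0.10 without Alg on day 14 to 0.85 without the control of day 14. By mean CPM the order, in which no neighbours differed beyond their spread, was control 1.33 ± 0.396, d-SMG 1.66 ± 0.119, Alg 1.84 ± 0.342 and s-GAG 2.001 ± 1.35.

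Edn3 encodes endothelin-3, which acts through the B receptor and is required by neural crest derived melanocytes and enteric neurons. The control had 0.630, 0.478 and 1.76 CPM on days 3, 7 and 14 (15, 7 and 36 reads). The d-SMG wounds had 0.885, 0.184 and 0.629 CPM (11, 4 and 10 reads). With s-GAG the values were 0.975, 0.284 and 4.16 CPM (17, 11 and 61 reads), and with Alg 1.47, 1.02 and 0.559 CPM (30, 15 and 9 reads). The groups overlapped, with 5 of 9 dressed wounds above the control of their day and 4 below. Without d-SMG on day 3 and s-GAG on day 14, 3 of 7 were above and 4 below.

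On day 14 the dressings split: Edn3 was 2.37 times the control with s-GAG (1.54 to 3.68), whereas the control was 2.79 times higher than d-SMG (1.36 to 6.31) and 3.14 times higher than Alg (1.49 to 7.42). Alg on day 3 was 2.33 times its control (1.22 to 4.67). The s-GAG library of day 14 also held 252 CPM over the 8 melanocyte markers, with none at 0, where the other 11 libraries held 25.1 to 54.8 CPM with 1 to 6 markers at 0 reads, Tyr and Slc45a2 among them in most. The part of melanocyte content in that Edn3 level was not tested. The fitted log2 difference over the days was 0.61 for s-GAG (adjusted p = 0.772) and -0.57 without its day 14 library. For Alg it was 0.50 (adjusted p = 1.0), and -0.27 without Alg on day 7. For d-SMG the fitted value was -0.71, given with no test. Mean CPM ran from 0.566 ± 0.355 with d-SMG through 0.955 ± 0.699 in the control and 1.01 ± 0.455 with Alg to 1.81 ± 2.07 with s-GAG, each step within the spread.

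The balance among the ligands was read from the FPKM values, within each library, where scaling between libraries plays no part. Edn2 made up 8.06%, 13.3% and 4.68% of the summed ligand FPKM in the controls of days 3, 7 and 14. Its share was 48.2%, 28.0% and 56.2% with d-SMG, 35.5%, 39.1% and 64.0% with s-GAG, and 29.2%, 26.4% and 47.1% with Alg. Edn1 was the leading ligand in all 3 controls, at 64.3% to 76.6%, and Edn2 exceeded it in 3 dressed libraries, d-SMG on days 3 and 14 and s-GAG on day 14. The share of Edn1 was lower than in the control of the day in 9 of 9 dressed libraries, a count that the higher Edn2 share in part fixes. The summed ligand FPKM went from 0.830 to 1.71 in the controls and from 1.74 to 3.66 in the dressed wounds. These sums rest on 22 to 204 ligand reads per library and on FPKM given to 2 decimals, and the Edn2 term in them was the value selected on.

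By FPKM, Ednrb was the more abundant receptor in every library. Control wounds had 13.3, 19.5 and 22.5 CPM on days 3, 7 and 14, and d-SMG wounds 19.7, 32.3 and 53.9 CPM. The s-GAG wounds had 39.3, 72.6 and 13.2 CPM, and Alg 46.2, 19.2 and 83.3 CPM. Ednrb was above the control of the day in 7 of 9 dressed wounds, and in 6 of 7 without d-SMG on day 3 and s-GAG on day 14. The exceptions were s-GAG on day 14 and Alg on day 7. Those libraries held the third and second highest sums of the 10 skeletal muscle markers, 96560 and 133800 CPM, after d-SMG on day 3. The muscle sum was 53800 to 71470 CPM in the controls, 4698 to 197900 with d-SMG, 37890 to 96560 with s-GAG and 10450 to 133800 with Alg, with no marker at 0, and its part in the Ednrb level was not tested.

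The d-SMG ratio to control was 1.49 (1.25 to 1.76) on day 3, 1.66 (1.44 to 1.91) on day 7 and 2.40 (2.14 to 2.69) on day 14. For s-GAG it was 2.96 (2.59 to 3.40) on day 3 and 3.72 (3.29 to 4.21) on day 7, and on day 14 the control was 1.71 times higher (1.44 to 2.03). Alg stood at 3.49 (3.07 to 3.97) and 3.70 (3.33 to 4.12) on days 3 and 14, and at 0.983 (0.831 to 1.16) on day 7. Within s-GAG the interval of day 14 lay apart from those of days 3 and 7, and within Alg that of day 7 lay apart from those of days 3 and 14. Within d-SMG the intervals of days 3 and 7 overlapped, and that of day 14 lay above both. The fitted log2 difference was 1.28 for s-GAG (adjusted p = 0.575) and 1.42 for Alg (adjusted p = 1.0), and 0.89 for d-SMG as a description. Leaving out s-GAG on day 14 raised the s-GAG value to 1.89 and leaving out s-GAG on day 7 lowered it to 0.47. Mean CPM was 18.4 ± 4.71 in the control, 35.3 ± 17.3 with d-SMG, 41.7 ± 29.8 with s-GAG and 49.6 ± 32.2 with Alg, and the 3 dressings lay within 1 SD of each other.

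Ednra did not follow Ednrb. Its level was 10.6, 19.6 and 10.5 CPM in the control, 7.56, 20.3 and 10.1 with d-SMG, 12.9, 12.4 and 5.39 with s-GAG, and 12.2, 10.03 and 16.2 with Alg. Control and d-SMG both had their highest value on day 7. There the control was 1.58 times s-GAG (1.36 to 1.84) and 1.95 times Alg (1.60 to 2.40), and the d-SMG ratio was 1.04 (0.893 to 1.21). No Ednra pair reached 2-fold, the widest being s-GAG on day 14, where the control was 1.96 times higher (1.51 to 2.57). The fitted log2 difference was -0.38 for s-GAG (adjusted p = 0.747; -0.07 without s-GAG on day 14 and -0.82 without s-GAG on day 3) and 0.03 for Alg (adjusted p = 1.0), the latter changing sign with the table and the libraries used. Mean CPM was 10.2 ± 4.19 with s-GAG, 12.7 ± 6.76 with d-SMG, 12.8 ± 3.15 with Alg and 13.6 ± 5.20 in the control, an order within the spread. In the RefSeq annotation of GRCr8, Ednra overlaps 1 other gene, and whether reads were counted by strand is not given in the sources used here.

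**Figure D2:**
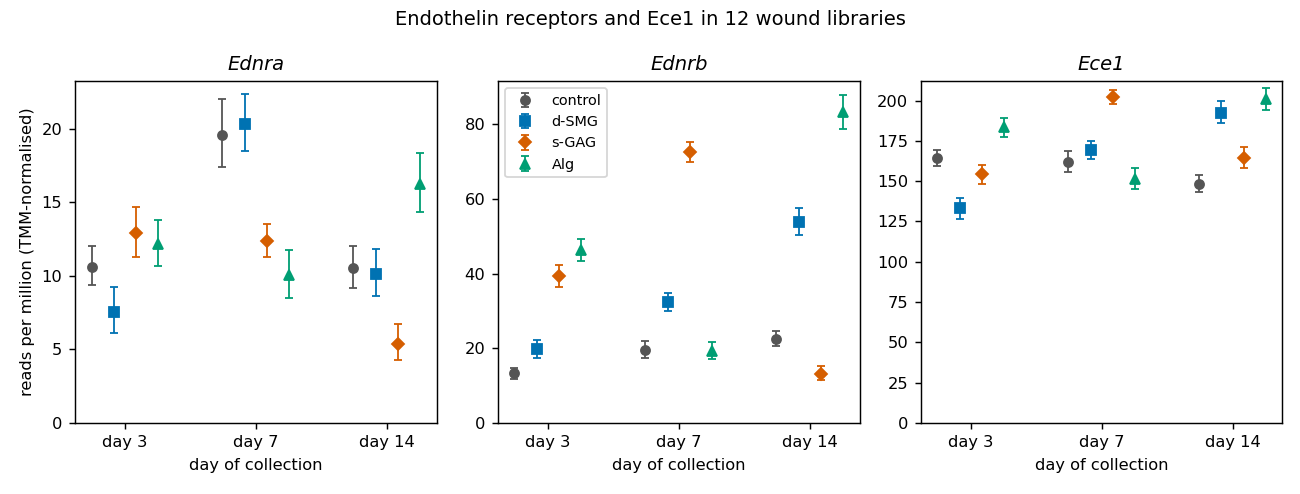
TMM-normalised CPM of Ednra, Ednrb and Ece1 by day, 1 point per library, with exact 95% counting intervals. Ednrb spread from 13.2 to 83.3 CPM, and Ece1 stayed between 133 and 202 CPM. The Ednrb level of the control was the lowest on day 3, near that of Alg at the bottom on day 7, and above that of s-GAG on day 14.

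The ratio of the receptors within a library, Ednrb FPKM over Ednra FPKM, was 1.53, 1.23 and 2.62 in the controls of days 3, 7 and 14. With d-SMG it was 3.21, 1.95 and 6.53, with s-GAG 3.75, 7.21 and 3.00, and with Alg 4.68, 2.35 and 6.30. The control had the lowest ratio on each day, so 9 of 9 dressed libraries were above it, and 7 of 7 without d-SMG on day 3 and s-GAG on day 14. The counting intervals of s-GAG (2.30 to 3.95) and control (2.22 to 3.09) on day 14 overlapped, and the control of day 14 exceeded the d-SMG and Alg ratios of day 7. This ratio was chosen after its values were seen and carries no test. Hair follicle markers were higher in 8 of the same 9 libraries, and their part in the ratio was not tested.

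**Figure D3:**
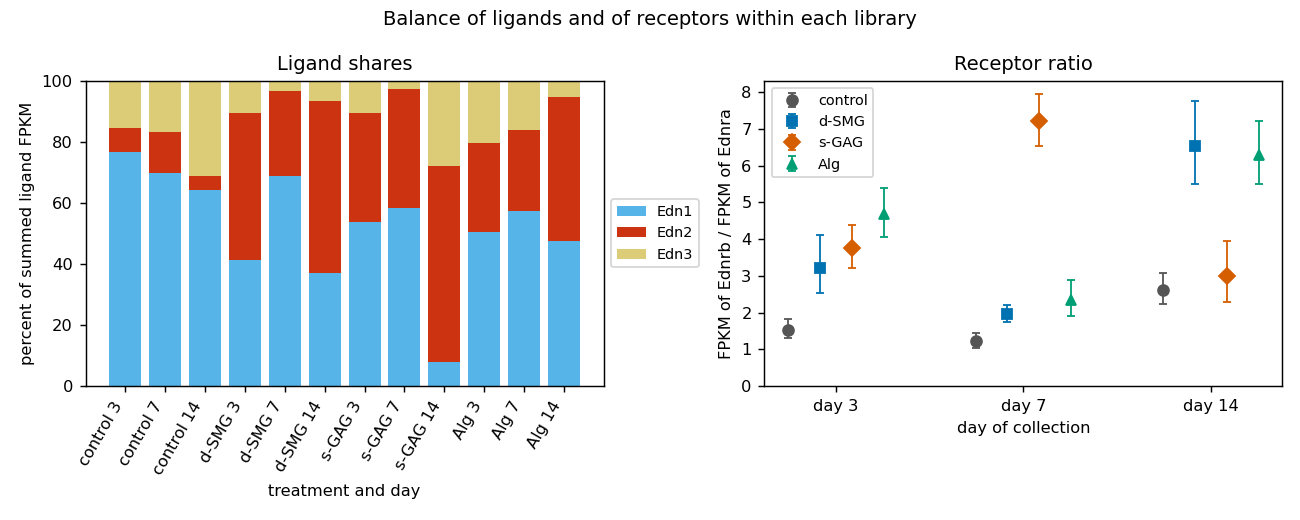
Left, the percent of the summed FPKM of the 3 ligands contributed by each, 1 bar per library. Right, the FPKM of Ednrb divided by that of Ednra by day, with the exact 95% counting interval of the read ratio. Edn2 filled 4.68% to 13.3% of the control bars and 26.4% to 64.0% of the others, and the control had the lowest receptor ratio on each day.

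Ece1, whose product makes the active peptides from their precursors, was the steadiest member. It stood at 164, 162 and 149 CPM in the control, 133, 169 and 193 with d-SMG, 154, 202 and 165 with s-GAG, and 183, 152 and 201 with Alg. The largest ratio to a control was that of Alg on day 14 (1.35, 1.29 to 1.42), and the smallest that of d-SMG on day 3 (0.810, 0.764 to 0.858). For s-GAG the log2 differences of days 3 and 14, -0.09 and 0.15, changed sign when scaled by read totals (0.05 and -0.30). Mean CPM was 158 ± 8.62 in the control, 165 ± 29.98 with d-SMG, 174 ± 25.3 with s-GAG and 179 ± 25.04 with Alg, neighbours again within the spread. The fitted difference was 0.13 for s-GAG (adjusted p = 0.865) and 0.17 for Alg (adjusted p = 1.0).

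Counts of members past 2-fold were read against all 16110 genes. With d-SMG, 1 of 6 members (Edn2) passed on day 3, where 24.7% of all genes did, 3 (Edn1, Edn2 and Edn3) on day 7 against 14.0%, and 3 (Edn2, Edn3 and Ednrb) on day 14 against 28.3%. With s-GAG it was 2 (Edn2 and Ednrb) against 25.3%, 3 (Edn1, Edn2 and Ednrb) against 24.9%, and 3 (Edn1, Edn2 and Edn3) against 57.5%. With Alg, 3 (Edn2, Edn3 and Ednrb) passed on day 3 against 20.1%, 2 (Edn2 and Edn3) on day 7 against 24.9%, and 3 (Edn2, Edn3 and Ednrb) on day 14 against 20.7%. Edn2 is in each of these counts, and the ligand genes have few reads, so a 2-fold difference is within counting error in several of them.

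**Figure D4:**
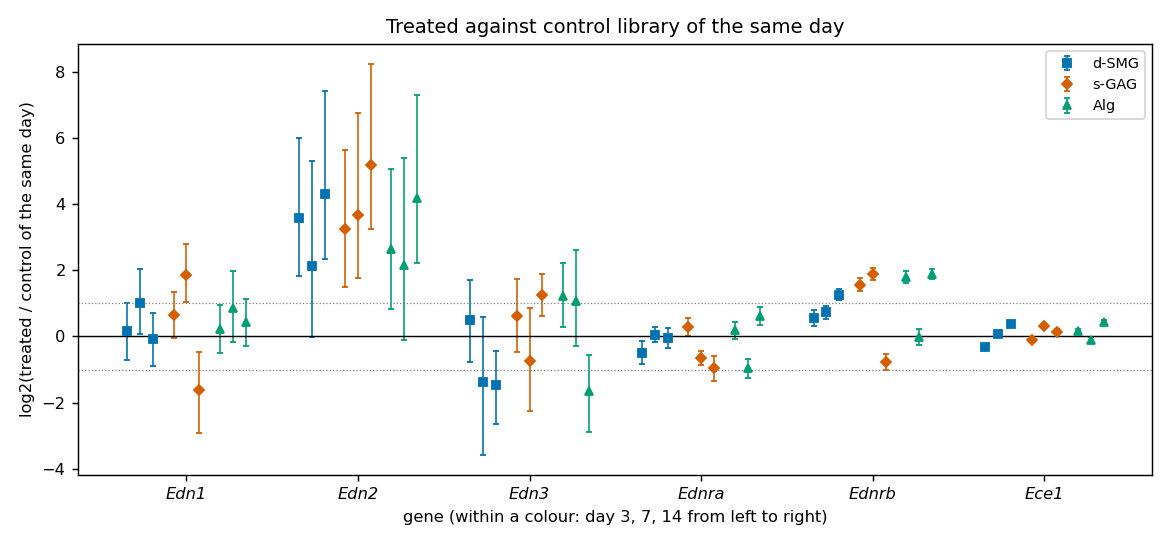
Log2 ratio of each dressed wound to the control of the same day for the 6 genes, with exact 95% counting intervals. Dotted lines mark 2-fold. Edn2 lay above the upper line in all 9 pairs, Ednrb in 5, and Ednra and Ece1 in none.

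Days were compared over the 4 treatments, a contrast the selection was not made on. Edn2 is given here as a description, since its control and d-SMG values on each day were those selected on. It also passed the low-count filter only through the dressed wounds. No tested member passed the threshold between days. The edgeR quasi-likelihood test called 0.0% of 16110 genes for day 7 against day 3 and 0.0% for day 14 against day 3, with 292 and 798 genes at an unadjusted p under 0.05, and DESeq2 called 0 and 39 genes, no member among them. The same test called 0.0% of genes for s-GAG against control (1492 at an unadjusted p under 0.05, 288 by DESeq2) and 0.0% for Alg against control (502 and 88). The fitted log2 difference of day 14 from day 3 was 0.81 for Edn2 with no test, 0.70 for Edn3 (adjusted p = 0.924) and 0.62 for Ednrb (0.916). That of day 7 from day 3 was -1.13 for Edn3 and 0.51 for Ednra (adjusted p = 0.999 each). Edn2 averaged 0.910 ± 0.605, 0.774 ± 0.688 and 1.85 ± 1.41 CPM on days 3, 7 and 14 (SD, n = 4 treatments).

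The rest of the pathway was taken from 5 lists, and no gene in any of them was called by edgeR or DESeq2 in any of these comparisons. Among the processing and breakdown genes (furin-type proteases, Ece2, neprilysin and relatives), 7 of 8 passed the filter, and the fitted difference from control was negative for 7 of 7 with s-GAG (median log2 -0.56), 3 of 7 with Alg (0.00) and 4 of 7 with d-SMG (-0.27). Over all genes the share with a negative difference was close to even, with 50.1% higher for s-GAG, 46.6% for Alg and 46.3% for d-SMG, and medians of 0.00, -0.03 and -0.03. The 23 genes of receptor coupling and second messengers, from G proteins to phospholipase C, were lower in 18 with s-GAG (-0.36), 16 with Alg (-0.11) and 17 with d-SMG (-0.16). Of 11 regulators of endothelin gene transcription, 10 were lower with each dressing (-0.48, -0.28 and -0.19 in the same order). The 14 vasoactive counterparts, such as natriuretic peptides and the angiotensin system, were lower in 9 with each (-0.48, -0.04 and -0.12). Of 11 contractile and fibrotic targets, 9 were lower with s-GAG (-0.26), 8 with Alg (-0.32) and 10 with d-SMG (-0.25).

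The s-GAG values of several lists turned on the day 14 library, which stood apart. For receptor coupling the median log2 ratio of s-GAG to the control of the day was 0.10 on day 3, -0.19 on day 7 and -1.17 on day 14, where 13 of 23 genes were at least 2-fold lower. For the regulators it was -0.15, 0.05 and -1.33, with 7 of 11 at least 2-fold lower on day 14, and for processing and breakdown 0.04, -0.50 and -1.09. In that day 14 library 57.5% of all 16110 genes were at least 2-fold higher or lower than control. Nothing is therefore read about the lists from these counts. The vasoactive counterparts had -0.74, -0.52 and 0.10, and the contractile and fibrotic targets 0.12, -0.79 and -0.34. With d-SMG on day 3, the other library that stood apart, the 5 medians lay between -0.41 and 0.07.

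At an unadjusted p under 0.05 these lists held at most 3 genes in a comparison, among the vasoactive counterparts with s-GAG. The 3 treated-against-control comparisons share their control libraries, so the repeated direction is not independent. Kel, a protease that can cut big endothelin-3, had the lowest fitted d-SMG value of its list (log2 -2.03), which rests on 56 reads in the control of day 14 against 3 with d-SMG. Nppc, which encodes a C-type natriuretic peptide that relaxes vessels, had the highest (1.98), with 0, 3 and 2 reads in the controls and 0, 6 and 20 with d-SMG. Among the contractile and fibrotic targets, Col1a1, a chain of type I collagen, had a fitted value of -0.78 and stood at 1634, 15160 and 10380 CPM in the control and 1584, 7287 and 6426 with d-SMG. Mylk, the kinase of smooth muscle myosin light chain, had -0.69. Ace, the angiotensin-converting enzyme, had -0.69, Pcsk6 -0.46, the arrestin gene Arrb1 -0.47, and the transcription factor genes Gata2 and Nr3c1 -0.46 and -0.28, while the phospholipase gene Plcb2 had 0.47.

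Across the 12 libraries the members' levels were related unevenly, as Pearson's r of log2 CPM, and several values turned on the pair of libraries that stood apart. The r of Ednrb was 0.75 with Ece1 and 0.74 with Edn1, and 0.82 and 0.70 over the 10 libraries left without d-SMG on day 3 and s-GAG on day 14. Edn2 had an r of 0.37 with Ednrb and 0.02 with Edn1 over all 12, and of 0.90 and 0.69 over the 10. Edn3 with Ednra had -0.76 over the 12 and -0.60 over the 10. These points share libraries and their scaling, and the treated and control wounds are pooled in them. The control and d-SMG values of Edn2 were among those selected on, here and in the correlations that follow.

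The members were also set beside the summed markers of the cell types, and a part of the values is given here. With the hair follicle sum, r over the 12 and the 10 libraries was 0.63 and 0.91 for Ednrb, 0.64 and 0.55 for Ece1, and 0.25 and 0.76 for Edn1. The keratinocyte sum gave 0.27 and 0.71 for Ednrb. With the skeletal muscle sum it was -0.65 and -0.57 for Ednrb, -0.65 and -0.54 for Ece1, and -0.11 and -0.51 for Edn2. With macrophage markers Edn2 had -0.60 and -0.43, Edn3 -0.64 and -0.33, and Ednra 0.68 and 0.58. The endothelium sum gave -0.08 and -0.36 for Edn1, -0.45 and -0.44 for Edn2, and -0.37 and -0.29 for Edn3. It gave 0.48 and 0.61 for Ednra, -0.15 and -0.26 for Ednrb, and -0.04 and 0.05 for Ece1. For vascular smooth muscle and pericytes r was -0.39 and -0.05 with Edn2, 0.23 and -0.49 with Ednra, and 0.32 and 0.03 with Ednrb. For fibroblasts it was 0.63 and 0.55 with Ednra. The r of Edn3 with the melanocyte sum was 0.79 over the 12 libraries and 0.39 over the 10, and that of Ednra was -0.71 and -0.38. The part of any of these cell types in the members' levels was not tested.

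The genes most like Edn2 over the 12 libraries were Rrs1, a ribosome biogenesis factor (r = 0.934), Noct, a clock-regulated gene (0.924), Ggact (0.921), Slc25a37, a mitochondrial iron importer (0.913), and Zfp830 (0.897). Rrs1 stood at 52.7, 38.6 and 41.4 CPM in the control libraries and at 92.0 CPM in s-GAG on day 14, its highest value as it was for Edn2. Noct spanned a wider range, from 1.37 CPM in the control of day 14 to 9.07 CPM in s-GAG on day 14. For Edn1 the nearest genes were Hook1, Dis3 and Brpf1 (r of 0.886 to 0.869), and for Edn3 Ddit3, Bbs1 and Trmt5 (0.915 to 0.877). Ednra was followed by Sh3gl1, Man2a1 and Mgat3 (0.957 to 0.953), Ednrb by Scyl3, Utp15 and Sc5d (0.935 to 0.919) and Ece1 by Rpl7l1, Dstn and Dhrs1 (0.912 to 0.891). Each was picked for the highest r from the 16110 genes, after symbols that start with LOC, RGD, AABR, AC or NEWGENE were left out. The size of r is therefore a description of these libraries. Over the 10 libraries the same genes had an r of 0.886 to 0.971 with Edn2, 0.738 to 0.814 with Edn1, 0.725 to 0.805 with Edn3, 0.894 to 0.931 with Ednra, 0.908 to 0.943 with Ednrb and 0.833 to 0.903 with Ece1.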

How the data were processed

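RNA from 12 wound skin libraries was depleted of rRNA, prepared with a stranded kit and sequenced in pairs. The submitters' processing notes name bcl2fastq, FastQC, TopHat2 and edgeR, and the build and the counting are not given in the sources used here. The authors deposited read counts per gene (25620 genes) and FPKM values (25524 genes), and 1 column in each table matched no sample and was not used. Counts were scaled by TMM and filtered with filterByExpr (edgeR 4.0.16, R 4.3.3; 10 reads). A single quasi-likelihood fit held all libraries with day and treatment as terms, with Benjamini-Hochberg adjustment at 0.05. With 1 library per group and day, days stand in for replicates, and whether libraries came from separate animals is not given. Correlations used log2(CPM + 0.5). DESeq2 1.42.0, and limma 3.58.1 on log2(FPKM + 1) or log2(FPKM + 0.1), were alternatives. The code of the fit was run on simulated counts with a spread fixed beforehand, which does not show how the fit performs on these libraries. The named genes were the 6 members, in each list the genes called plus the 2 with the largest d-SMG difference, and the best-correlated genes. Members and lists were chosen with earlier results of these data known.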

Additional observations from a re-analysis of the deposited data

Results flagged for a closer look

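A pair of genes stood past 2-fold on opposite sides of the control at different days under the same dressing, with both counting intervals excluding 1. Edn1 with s-GAG was higher than control on day 7 (log2 1.86) and lower on day 14 (log2 -1.61). Edn3 with Alg was higher on day 3 (log2 1.22) and lower on day 14 (log2 -1.65). Each value compares 1 library with 1 library, and the difference between the days was not tested. The s-GAG library of day 14 had the lowest mean correlation with the others, 0.853.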

How the results depend on the processing

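No tested member passed the threshold under any alternative. For s-GAG against control, the count of genes called moved from 0 to 1 with no filter on low counts, 12 with only the groups compared and 288 with DESeq2, and from 0 to 66 on leaving out single libraries (66 without d-SMG on day 3, 1 without Alg on day 7). For Alg the count was 9 with only the groups compared and 88 with DESeq2, and for day 14 against day 3 it was 39 with DESeq2. The log2 difference of Ednra with Alg, 0.03, became -0.01 on FPKM (-0.006446 with a pseudocount of 1 and -0.007975 with 0.1), -0.0411 with only the groups compared and -0.0838 with no day term. For Edn1 on day 7 against day 3 it was -0.00692 with only the groups compared. On leaving out single libraries the s-GAG difference went from -0.0798 to 1.13 for Edn1 (negative without s-GAG on day 7), from -0.57 to 1.11 for Edn3 (without s-GAG on day 14) and from -0.0191 to 0.21 for Ece1 (without s-GAG on day 7). The Ednra difference with s-GAG stayed negative, from -0.82 to -0.07, and the Edn1 difference with Alg positive, from 0.10 to 0.85. With Alg it went from -0.27 to 1.24 for Edn3 (without Alg on day 7) and from -0.43 to 0.44 for Ednra (lowest without Alg on day 14). For day 7 against day 3 it went from -0.42 to 0.34 for Edn1 and from -0.25 to 0.78 for Ednrb, both negative without s-GAG on day 7. For day 14 against day 3 it went from -0.44 to 0.30 for Edn1, from -0.10 to 1.25 for Edn3 and from -0.45 to 0.20 for Ednra, each changing sign without s-GAG on day 14, and Ednra also without s-GAG on day 3. The cause was not tested. Edn2 stayed above control in every alternative, from 3.51 to 4.37 for s-GAG and 2.44 to 3.29 for Alg when single libraries were left out, and 1.20 and 0.76 on log2(FPKM + 1), where the pseudocount exceeds the control level. The d-SMG alternatives and the counts and correlations without d-SMG on day 3 and s-GAG on day 14 were chosen after seeing the data. Each group and day had 1 library, treated and control libraries are matched by day through the day term of the fit, and the fit with no day term moved no count of genes called. Depth limits the ligand genes most, with 2 or 3 control reads behind every Edn2 ratio.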
